A study of Mus musculus with 200 samples.

Results

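The galectins Lgals1, Lgals3, Lgals8 and Lgals9 and the galectin-binding protein Lgals3bp were taken by symbol from the deposited counts table of whole mouse brain hemispheres, and make up 5 of its 56941 genes. They were singled out because of how they differed between closed head injury (CHI) and sham in these mice, so the CHI and sham levels below are a description without a test. The 200 mice belonged to 4 strains, C57BL/6J and the strains that the labels call IL-1R1 gKO, IL-1R1 eRestore or else IL-1R1 nRestore, and were killed 9, 24 or 72 h after surgery at 3.3 to 7.67 months of age, 102 females and 98 males. CHI was an impact on the intact skull under anaesthesia, and sham mice had the anaesthesia and a scalp incision only. C57BL/6J mice had CHI or sham as 15 and 6 mice at 9 h, and as 14 and 6 at both 24 and 72 h. Mice labelled IL-1R1 gKO numbered 13 and 6 at 9 h, and 12 and 6 at each later time. IL-1R1 eRestore groups held 12 and 6 mice at 9 h, 9 and 5 at 24 h, and 12 and 6 at 72 h. IL-1R1 nRestore groups held 6 and 4 mice at 9 h, 8 and 5 at 24 h, and 6 and 5 at 72 h, the last all labelled male.

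The sources used here do not give the deleted part of the interleukin-1 receptor gene Il1r1 or what drives its restoration. Its counts do not check the strain labels, since in sham mice Il1r1 was higher than in C57BL/6J mice by a log2 difference of 1.06 (SE 0.13, adjusted p = 5.28e-09) in mice labelled IL-1R1 gKO, 0.77 (SE 0.13, adjusted p = 2.66e-05) in IL-1R1 eRestore and 0.88 (SE 0.14, adjusted p = 2.30e-06) in IL-1R1 nRestore mice, by edgeR's quasi-likelihood test with Benjamini-Hochberg adjustment. Total counts were 14.9 to 57.4 M per mouse, with a median of 20.3 M. No 9 h mouse shared an experiment with a later mouse, so time and experiment cannot be told apart in any comparison of 9 h with later times. At 24 h, 4 IL-1R1 eRestore, 5 IL-1R1 gKO and 4 IL-1R1 nRestore CHI mice came from an experiment without sham mice of these strains. All of them were female, and some were older than any sham mouse of their strain at that time. Surgery in these strains at 24 h therefore cannot be fully told apart from experiment, sex and age. In 2 libraries, 1 IL-1R1 eRestore sham mouse at 24 h and 1 IL-1R1 nRestore CHI mouse at 72 h, the sex-linked genes did not match the labelled sex, and without them no call of the 5 genes changed and 2 directions did, both in IL-1R1 eRestore mice at 24 h, those of Lgals1 (CHI minus sham -0.06, and 0.02 without) and Lgals8 (-0.03, and 0.00 without). Each hemisphere was a mixture of cells, so more cells of a type and more RNA per cell cannot be told apart.

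Galectins are small lectins that bind beta-galactoside sugars on glycoproteins and glycolipids, both outside cells and, after membrane damage, inside them. Prototype galectins such as galectin-1 carry a single sugar-binding domain and pair up, tandem-repeat galectins such as galectin-8 and galectin-9 join different domains in a single chain, and galectin-3 has a long tail through which it forms lattices. In the brain galectin-3 is best known from activated microglia and infiltrating macrophages, galectin-1 from astrocytes and vascular cells, and galectin-9 from astrocytes and myeloid cells. Lgals3bp encodes a heavily glycosylated secreted protein to which galectins bind, and interferons are known to induce it.

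By position on GRCm39 the 5 genes lie apart from one another, except that Lgals3bp and Lgals9 are on the same chromosome. Lgals1 (ENSMUSG00000068220) lies at chr15:78810875-78814670 on the plus strand and Lgals3 (ENSMUSG00000050335) at chr14:47605208-47623624, plus strand. Lgals8 (ENSMUSG00000057554) is at chr13:12454282-12479840, Lgals9 (ENSMUSG00000001123) at chr11:78853800-78875798 and Lgals3bp (ENSMUSG00000033880) at chr11:118280716-118292918, all on the minus strand. All are annotated as protein coding. Lgals8 overlaps Heatr1 on the other strand and Lgals1 overlaps the predicted gene Gm30368. Strandedness of the libraries is not given in the sources used here, so reads from such overlaps cannot be assigned with certainty.

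Promoter windows from RefSeq on the earlier build GRCm38.p6 were matched for 4 of the 5 genes. Those of Lgals3, Lgals3bp and Lgals9 are shown because, of the matched genes, their transcripts had the larger differences between CHI and sham at 9 or 72 h, and each is the 250 bases upstream of the start, with matches to the motifs searched in capitals.
Lgals3, chr14:47373610-47373859 of GRCm38.p6, plus strand: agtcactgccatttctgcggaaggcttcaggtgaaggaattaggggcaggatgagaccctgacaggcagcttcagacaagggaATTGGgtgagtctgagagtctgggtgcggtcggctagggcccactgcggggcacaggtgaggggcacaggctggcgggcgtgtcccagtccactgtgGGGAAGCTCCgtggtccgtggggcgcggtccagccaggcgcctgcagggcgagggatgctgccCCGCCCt
Lgals3bp, chr11:118401960-118402209 of GRCm38.p6, minus strand: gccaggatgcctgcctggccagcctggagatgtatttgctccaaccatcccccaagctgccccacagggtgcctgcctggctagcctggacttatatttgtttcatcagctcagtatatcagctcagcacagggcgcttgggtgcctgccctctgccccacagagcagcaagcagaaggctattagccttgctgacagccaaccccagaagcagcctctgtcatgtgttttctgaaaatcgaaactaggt
Lgals9, chr11:78984925-78985174 of GRCm38.p6, minus strand: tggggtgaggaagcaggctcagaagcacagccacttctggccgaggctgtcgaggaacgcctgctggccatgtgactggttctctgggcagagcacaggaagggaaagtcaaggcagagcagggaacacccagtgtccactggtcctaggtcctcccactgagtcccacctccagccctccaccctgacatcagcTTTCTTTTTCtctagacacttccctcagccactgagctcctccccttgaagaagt

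Letters of 9 motifs were searched on both strands. In the Lgals3 window the capitals mark an NF-kappaB motif beginning 70 bases before the start, and on the other strand a GC box (GGGCGG) 7 bases before it and a CCAAT box. These letters were found in 7.25%, 32.7% and 33.8% of 32851 mouse windows of the same length. The Lgals9 window held the interferon-stimulated response element (ISRE, GAAA and GAAA around any 2 bases) on its other strand, 55 bases before the start, as did 2.98% of windows. The other motifs searched were AP-1 (TGA, 1 base, TCA), CRE (TGACGTCA), GAS (TTCNNNGAA), C/EBP (TTGCNNAA) and the TATAAA of a TATA box. The window of Lgals8, which is not shown, held an NF-kappaB motif and 2 CCAAT boxes, all on its other strand. None of the 9 motifs was in the Lgals3bp window. A match is a description of the letters, and no binding was measured.

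In sham mice the 5 genes differed widely in level, and Lgals3 was by far the least abundant. On the scale of transcripts-per-million (TPM), which corrects for transcript length, Lgals1 stood at 23.7 ± 5.83 (SD, n = 67) and Lgals8 at 20.6 ± 3.17. The order of Lgals1 and Lgals8 was not fixed, since Lgals1 was the higher in 44 of 67 mice. Lgals3bp at 9.43 ± 2.95 TPM was below Lgals8 in 65 mice, Lgals9 at 6.79 ± 1.17 TPM was below Lgals3bp in 60, and Lgals3 at 1.13 ± 0.838 TPM was below Lgals9 in all 67. Lgals3 rested on few reads, a median of 9 counts in sham mice, with 10 counts or more in 26 of 67 sham mice. Of the other galectin genes, the galectin-like Lgalsl was the most abundant at 66.7 ± 5.12 TPM in sham mice, and Lgals4, Lgals12, Lgals2, Lgals7 and Grifin had means of 1.07, 0.457, 0.217, 0.262 and 0.353 TPM.

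Lgals3, whose product binds and clusters glycoproteins on myeloid cells and marks broken lysosomes, had the widest fitted CHI difference of the 5 genes. This held in the fits to counts of C57BL/6J mice and of the 4 strains together at each time, where the gap was widest at 9 h. In C57BL/6J mice at 9 h, counts-per-million after TMM scaling (CPM) ran from 0.828 through a median of 1.71 to 2.97 in CHI mice, and from 0.0567 through 0.291 to 1.06 in sham mice. Of the CHI mice, 13 of 15 lay above every sham mouse. At 24 h the CHI mice ran from 0.355 through 1.07 to 1.89 CPM and the sham mice from 0.133 through 0.269 to 0.466, with 12 of 14 CHI mice above all sham mice. At 72 h the ranges drew closer, from 0.198 through 0.777 to 1.51 CPM after CHI and from 0.266 through 0.330 to 0.531 in sham mice, and 11 of 14 CHI mice were above all sham mice. The ratio of the CHI mean to the sham mean was 4.50, 4.04 and 2.17 at the 3 times by CPM, and 3.87, 2.77 and 1.30 by transcripts-per-million, on which scale the highest of the sham mice at 72 h (3.43) was above the highest CHI mouse (2.53). By transcripts-per-million the 72 h ratios of Lgals1 (1.46) and Lgals3bp (1.42) in C57BL/6J mice were above that of Lgals3. From the fit with sex and age as covariates, CHI minus sham on the log2 scale was 2.20 (SE 0.36) at 9 h, 1.77 (SE 0.36) at 24 h and 1.00 (SE 0.34) at 72 h. With gene-length offsets in DESeq2 the 72 h value was 0.66 (SE 0.43).

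In mice labelled IL-1R1 gKO the 9 h pattern was alike in direction and the later gaps were smaller. At 9 h Lgals3 ran from 0.110 through 1.53 to 2.84 CPM after CHI and from 0.162 through 0.518 to 0.948 CPM in sham mice, and 11 of 13 CHI mice were above every sham mouse. At 24 h the values were 0.462, 0.739 and 1.70 CPM (lowest, median and highest) after CHI against 0.269, 0.371 and 1.09 CPM in sham mice. At 72 h they were 0.217, 0.473 and 0.954 CPM against 0.238, 0.334 and 0.616 CPM. Only 2 of 12 CHI mice at 24 h and 3 of 12 at 72 h exceeded all sham mice. CHI minus sham was 1.48 (SE 0.40), 0.42 (SE 0.38) and 0.42 (SE 0.32) at 9, 24 and 72 h, and the 24 h value was 0.69 without covariates and 0.91 with choroid plexus markers as a covariate.

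In IL-1R1 eRestore mice the sham levels of Lgals3 at 24 h were as high as the CHI levels. The 5 sham mice at 24 h stood at 0.701, 0.354, 0.427, 1.09 and 0.826 CPM, and the 9 CHI mice ran from 0.265 through 0.684 to 1.84 CPM, with 2 above all sham mice. CHI minus sham was -0.42 (SE 0.43), and its sign turned without covariates, when it was 0.21, while leaving out 1 sham mouse at a time moved it between -0.70, without the mouse at 0.427 CPM, and -0.24, without the mouse at 1.09 CPM. At 9 h CHI mice ran from 0.282 through 1.09 to 2.03 CPM and sham mice from 0.241 through 0.430 to 1.36 CPM, a difference of 0.89 (SE 0.40). A single sham mouse set that upper end, and 3 of 12 CHI mice were above it. At 72 h the CHI values were 0.0520, 0.433 and 1.00 CPM (lowest, median and highest) against 0.104, 0.236 and 0.299 CPM in sham mice, with 8 of 12 CHI mice above all sham mice and a difference of 0.84 (SE 0.42).

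In IL-1R1 nRestore mice the groups were smallest and all overlapped. At 9 h the 4 sham mice had 0.583, 0.330, 0.840 and 0.479 CPM of Lgals3 and the 6 CHI mice 0.704 to 2.28 CPM with a median of 1.38, 5 of them above all sham mice. At 24 h the sham mice had 0.870, 0.164, 0.408, 0.523 and 0.486 CPM and the 8 CHI mice ran from 0.389 through 0.606 to 1.27 CPM. At 72 h the sham mice had 0.621, 0.237, 0.562, 0.308 and 0.600 CPM and the CHI mice ran from 0.197 through 0.723 to 1.25 CPM. So 3 of 8 CHI mice at 24 h and 4 of 6 at 72 h lay above every sham mouse. CHI minus sham was 1.19 (SE 0.42), 0.27 (SE 0.44) and 0.52 (SE 0.44), and at 24 h leaving out 1 sham mouse at a time moved it between -0.22 and 0.89, the former without the sham mouse at 0.164 CPM and the latter without that at 0.870 CPM. At 72 h the same moved it between 0.38, without the sham mouse at 0.237 or that at 0.308 CPM, and 0.92, without that at 0.621 CPM. In this strain Lgals3 did not have the widest difference at 24 or 72 h, when those of Lgals3bp were 0.51 and 0.60.

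**Figure D1:**
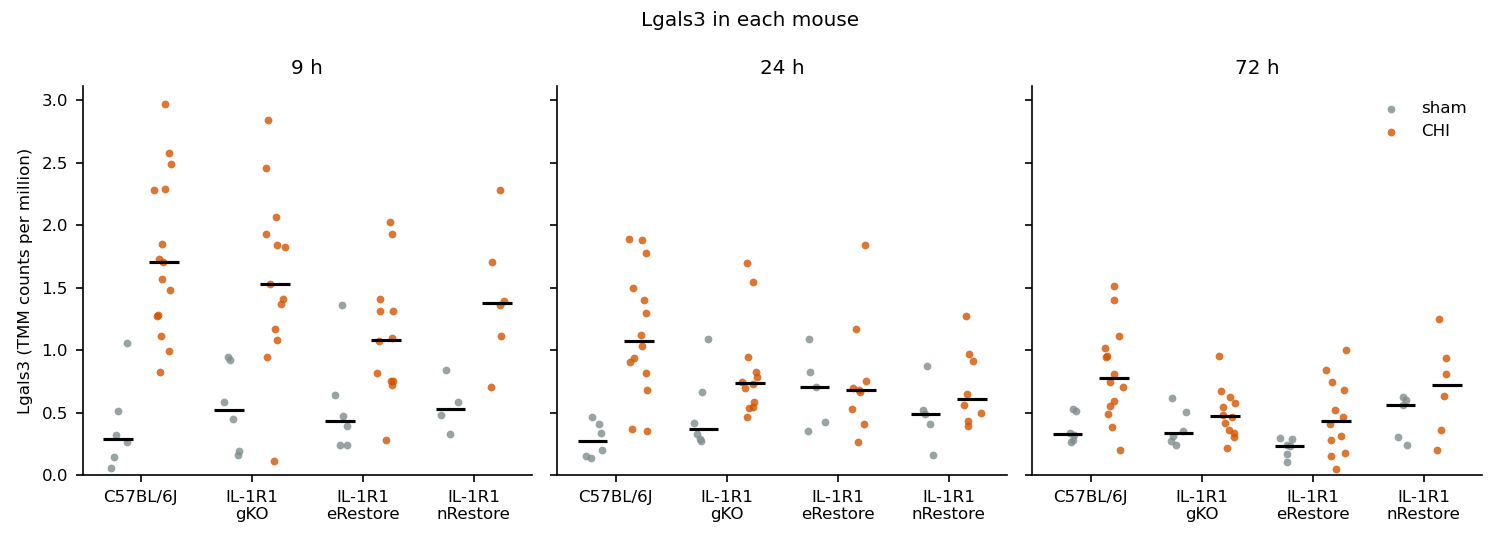
Lgals3 in every mouse as TMM counts-per-million (vertical axis, linear), by strain along the horizontal axis, in 1 panel per time after surgery. Points are mice and bars are group medians; at 9 h the CHI medians of the 4 strains lie between 1.09 and 1.71 and the sham medians between 0.291 and 0.531, and sham and CHI points overlap in every pair.

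In the fit that pooled the 4 strains, CHI minus sham for Lgals3 was 1.51 (SE 0.21) at 9 h, 0.59 (SE 0.22) at 24 h and 0.80 (SE 0.19) at 72 h. With gene-length offsets in DESeq2 the 24 h value was 0.38 (SE 0.26). The medians behind these were 1.40 CPM in 46 CHI mice against 0.459 CPM in 22 sham mice at 9 h, 0.755 in 43 against 0.413 in 22 at 24 h, and 0.565 in 44 against 0.308 in 23 at 72 h. The 9 h difference was close in each experiment, at 1.41 (SE 0.28), 1.55 (SE 0.39) and 1.43 (SE 0.34) in the 3 experiments of that time. At 72 h there were 4 experiments, of which 3 gave 0.73, 0.89 and 0.80 and the fourth, with 2 CHI mice and 1 sham mouse, was not fitted alone. At 24 h they gave 0.42 (SE 0.37) and 0.76 (SE 0.28) in the larger experiments and 1.76 (SE 0.80) in the experiment with 1 sham mouse.

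Lgals1, the prototype galectin of astrocytes and vessel walls, differed little between CHI and sham at 9 h and was higher after CHI at 72 h, most of all in C57BL/6J mice. C57BL/6J mice at 72 h ran from 7.31 through 9.33 to 11.8 CPM after CHI and from 5.05 through 6.21 to 7.94 CPM after sham, with 12 of 14 CHI mice above every sham mouse. At 9 h the same strain ran from 5.53 through 8.05 to 12.4 CPM after CHI and from 6.31 through 7.95 to 13.0 CPM after sham. CHI minus sham in C57BL/6J mice was -0.09 at 9 h, 0.24 at 24 h and 0.57 (SE 0.12) at 72 h.

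Mice labelled IL-1R1 gKO showed no such gap in Lgals1 at 72 h, with a median of 6.60 CPM after CHI and 6.58 CPM after sham and a difference of 0.08. IL-1R1 eRestore mice had a median of 6.45 CPM after CHI and 5.25 CPM after sham at 72 h (difference 0.19), and at 9 h lay lower after CHI, with medians of 6.71 and 7.36 CPM (difference -0.31, SE 0.15). In IL-1R1 nRestore mice at 72 h the 5 sham mice had 3.41, 6.47, 5.87, 5.72 and 6.00 CPM, and 5 of the 6 CHI mice, whose median was 7.50 CPM, lay above all of them. The same strain had sham values of 5.45, 4.46, 4.93, 7.17 and 8.15 CPM at 24 h, where 4 of 8 CHI mice lay above them all. CHI minus sham for Lgals1 in IL-1R1 nRestore mice was -0.23, 0.45 and 0.44 at 9, 24 and 72 h, and the 9 h value turned to 0.03 without 1 of the 4 sham mice. Over the 4 strains the differences were -0.14 (SE 0.09), 0.16 (SE 0.09) and 0.34 (SE 0.08), and at 72 h the 3 experiments fitted alone gave 0.32, 0.18 and 0.51.

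Lgals3bp, the secreted ligand of the galectins, went with Lgals1 in being higher after CHI at 72 h, and in IL-1R1 nRestore mice it was higher at all 3 times. IL-1R1 nRestore sham mice had 8.16, 8.42, 8.51 and 6.01 CPM at 9 h, where 5 of 6 CHI mice (8.49 to 13.1 CPM) lay above them. At 24 h the sham mice had 6.96, 6.26, 6.90, 8.64 and 7.33 CPM and the 8 CHI mice 8.88 to 11.9 CPM, so the groups did not overlap. This was the only pair without overlap among the 60 pairs of gene, strain and time. All 5 sham mice came from 1 experiment, and 4 of the 8 CHI mice from another without sham mice of this strain. Without overlap and higher after CHI in that strain at 24 h were 0.0646% of 20111 genes, and since the genes were chosen on this contrast nothing is read from it. At 72 h the sham mice had 9.12, 10.3, 7.80, 8.01 and 6.42 CPM, and 5 of 6 CHI mice (9.82 to 16.6 CPM) lay above them. CHI minus sham in this strain was 0.50 (SE 0.16), 0.51 (SE 0.12) and 0.60 (SE 0.12).

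In C57BL/6J mice Lgals3bp ran from 7.19 through 11.8 to 22.5 CPM after CHI and from 10.5 through 11.7 to 23.0 CPM after sham at 9 h, a difference of -0.20 (SE 0.20). At 72 h the same strain ran from 11.7 through 14.1 to 23.6 CPM after CHI and from 8.15 through 10.0 to 13.7 CPM after sham, with 8 of 14 CHI mice above all sham mice and a difference of 0.58 (SE 0.11). The differences at 72 h were 0.22 in mice labelled IL-1R1 gKO and 0.37 in IL-1R1 eRestore mice. Over the 4 strains CHI minus sham was -0.11 (SE 0.10) at 9 h, 0.15 (SE 0.08) at 24 h and 0.41 (SE 0.06) at 72 h. The 72 h difference was 0.25, 0.59 and 0.57 in the 3 experiments fitted alone. At 9 h it was 0.21, -0.25 and -0.20 in the 3 experiments, the first of which held only the strains labelled IL-1R1 gKO and IL-1R1 nRestore.

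Lgals9, a tandem-repeat galectin that binds the receptor Havcr2 (Tim-3), was slightly lower after CHI at 9 h and higher at 72 h. C57BL/6J mice at 72 h ran from 4.62 through 5.31 to 9.36 CPM after CHI and from 4.01 through 4.47 to 4.82 CPM after sham, and 10 of 14 CHI mice were above every sham mouse. In the other strains at 72 h the medians after CHI and sham were 5.07 and 4.93 CPM in mice labelled IL-1R1 gKO, 5.43 and 4.46 CPM in IL-1R1 eRestore and 6.01 and 4.19 CPM in IL-1R1 nRestore mice. The groups overlapped in all 4 strains. At 9 h the CHI medians were below the sham medians in each strain, as 3.86 against 4.07 CPM in C57BL/6J and 4.48 against 5.48 CPM in IL-1R1 eRestore mice. Over the 4 strains CHI minus sham was -0.15 (SE 0.07), -0.05 (SE 0.07) and 0.24 (SE 0.06) at 9, 24 and 72 h. The 9 h value was 0.03 in the experiment that held only the strains labelled IL-1R1 gKO and IL-1R1 nRestore, and the 24 h value was 0.05 without covariates.

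Lgals8, the tandem-repeat galectin that recognises sugars on damaged vesicles, varied least between mice and differed little after CHI. Over the 4 strains its CHI and sham medians were 22.7 and 21.3 CPM at 9 h, 24.1 and 22.7 CPM at 24 h, and 24.2 and 23.1 CPM at 72 h. The widest difference was that of C57BL/6J mice at 9 h, which ran from 21.2 through 24.0 to 29.4 CPM after CHI and from 18.5 through 20.3 to 22.9 CPM after sham. There 13 of 15 CHI mice lay above every sham mouse and the difference was 0.25 (SE 0.06), while the other 3 strains at 9 h had differences between -0.01 and 0.05. In mice labelled IL-1R1 gKO at 24 h, 7 of 12 CHI mice lay above every sham mouse and the difference was 0.16 (SE 0.07). Over the 4 strains CHI minus sham was 0.07 (SE 0.04), 0.04 (SE 0.03) and 0.02 (SE 0.04). The spread between mice within groups at 72 h, as a residual SD on the log2 scale, was 0.14 for Lgals8, 0.26 for Lgals9, 0.27 for Lgals3bp, 0.29 for Lgals1 and 0.70 for Lgals3.

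**Figure D2:**
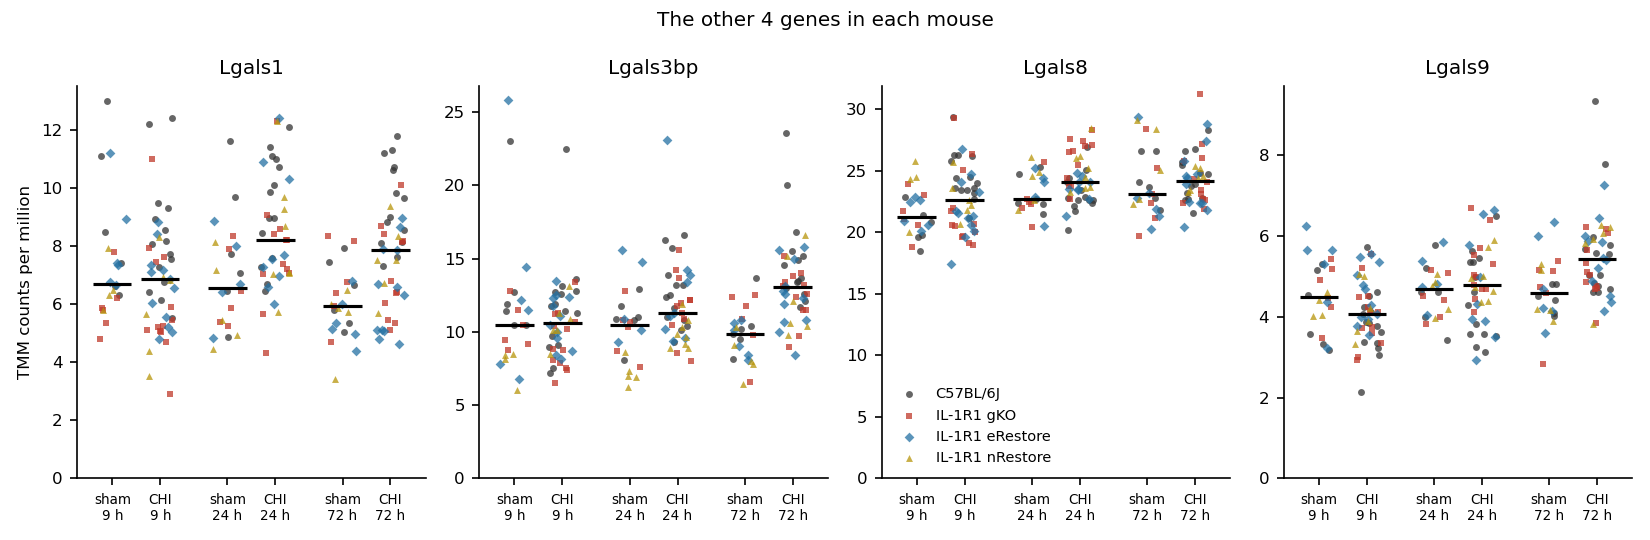
Lgals1, Lgals3bp, Lgals8 and Lgals9 in every mouse as TMM counts-per-million (linear axes from 0, scaled per gene), by surgery and time. Points are mice, coloured by strain, and bars are medians over the 4 strains; the CHI median stands above the sham median at 72 h for each gene, as 13.0 against 9.85 for Lgals3bp and 24.2 against 23.1 for Lgals8.

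Counting members past an adjusted p of 0.05 in the fit over 4 strains gave 1 of 5 at 9 h (Lgals3), where 26.5% of all genes tested were past it, 0 of 5 at 24 h, where 1.96% were, and 4 of 5 at 72 h (all but Lgals8), where 0.717% were. Within strains, Lgals3 and Lgals8 were past it in C57BL/6J mice at 9 h (14.1% of genes) and Lgals3 at 24 h (0.404% of genes), and none in the other strains or at 72 h. There 0.199%, 7.34% and 0.608% of genes were past it at 9 h in mice labelled IL-1R1 gKO, IL-1R1 eRestore mice and IL-1R1 nRestore mice, 0.0059%, 0% and 0% at 24 h, and 0%, 0.00605% and 0.0121% at 72 h, with 0% in C57BL/6J mice at 72 h. The genes were chosen for this contrast, so nothing is read from these counts.

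**Figure D3:**
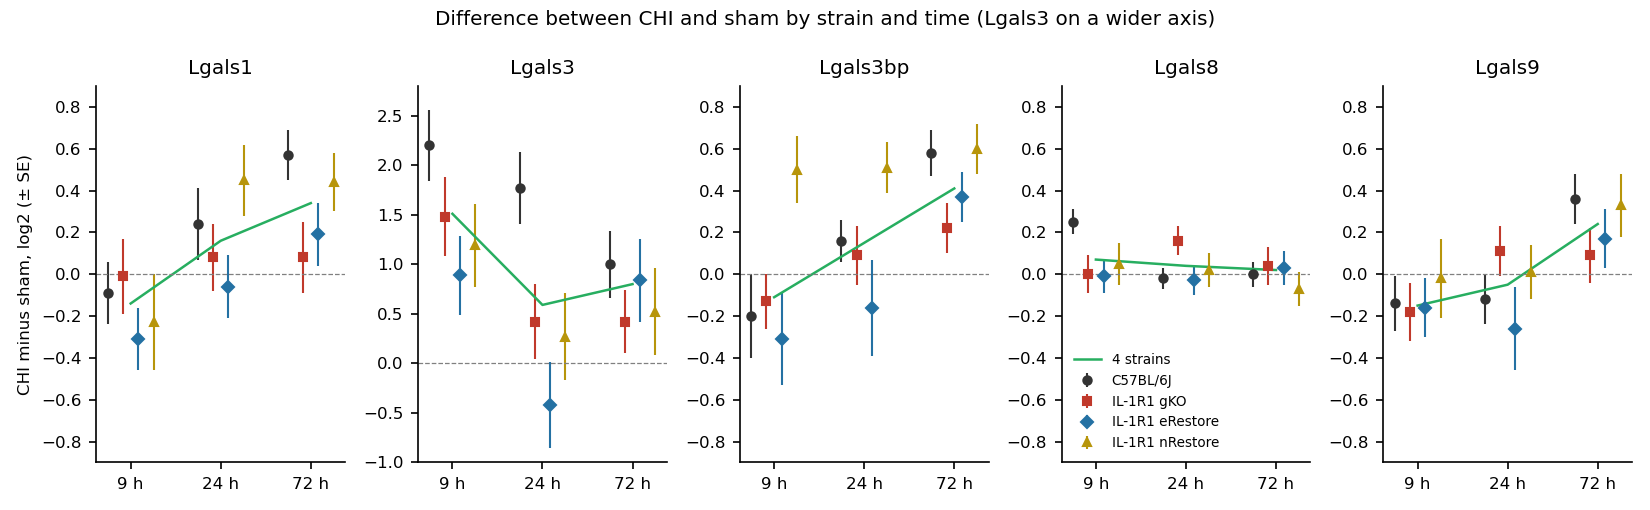
CHI minus sham on the log2 scale (vertical axis) for each gene by time, with Lgals3 on a wider axis. Symbols are strains with bars of ± 1 SE, and the line joins the fit over 4 strains; Lgals3 runs from 1.51 at 9 h to 0.80 at 72 h, while Lgals1, Lgals3bp and Lgals9 run from -0.14, -0.11 and -0.15 to 0.34, 0.41 and 0.24.

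The difference between CHI and sham at one time minus that at another was taken over the 4 strains from 1 fit to the 200 mice. The genes were chosen with these contrasts known, so the values are a description without a test. From 9 h to 72 h the value was 0.51 (SE 0.11) for Lgals3bp, 0.45 (SE 0.12) for Lgals1 and 0.37 (SE 0.09) for Lgals9. From 9 h to 24 h it was 0.39 (SE 0.12) for Lgals1, 0.25 (SE 0.12) for Lgals3bp and 0.11 (SE 0.10) for Lgals9. For Lgals3 the values were of the opposite sign, -0.70 (SE 0.29) at 24 h and -0.71 (SE 0.29) at 72 h against 9 h. Lgals8 had values of -0.01 and -0.05. From 24 h to 72 h Lgals3bp and Lgals9 both had 0.26, while Lgals3 stood at -0.01 (SE 0.44). Choroid plexus and meningeal markers moved at 9 h, and with the choroid plexus markers as a covariate the 9 h difference between CHI and sham went from -0.11 to 0.02 for Lgals3bp and from 1.51 to 1.60 for Lgals3, while at 72 h it stayed at 0.41 and 0.80.

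The CHI difference of each strain minus that of C57BL/6J mice is likewise a description, since the genes were chosen with the CHI and sham values of every strain known. The widest gaps were those of Lgals3 at 24 h. There the CHI difference was lower than in C57BL/6J mice by a log2 value of -2.24 in IL-1R1 eRestore mice (SE 0.51), -1.65 in IL-1R1 nRestore mice (SE 0.51) and -1.57 in mice labelled IL-1R1 gKO (SE 0.48). Part of the CHI mice of these strains at 24 h came from an experiment without their sham mice. Strain therefore cannot be fully told apart from experiment, sex and age in these gaps. At 9 h Lgals3 had -1.13 (SE 0.56) in IL-1R1 eRestore mice, -0.74 (SE 0.64) in IL-1R1 nRestore mice and -0.64 (SE 0.55) in mice labelled IL-1R1 gKO. At 72 h it had -0.19 (SE 0.57), -0.63 (SE 0.57) and -0.78 (SE 0.51) in the same order. The 9 h difference in Lgals8 was lower than in C57BL/6J mice by -0.24 in mice labelled IL-1R1 gKO, -0.23 in IL-1R1 eRestore and -0.27 in IL-1R1 nRestore mice. For Lgals1 at 72 h the values were -0.51 (SE 0.20) in mice labelled IL-1R1 gKO, -0.39 (SE 0.20) in IL-1R1 eRestore and -0.16 (SE 0.22) in IL-1R1 nRestore mice. Lgals3bp had 0.63 (SE 0.30) in IL-1R1 nRestore mice at 9 h and -0.34 (SE 0.17) in mice labelled IL-1R1 gKO at 72 h. The values of Lgals9 lay between -0.19 and 0.16 over the 3 strains and 3 times.

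Male and female mice were compared over the 4 strains with edgeR. At each of the 3 times 0 of 5 genes passed, as with DESeq2, beside 0.0868%, 0.158% and 0.104% of all genes at 9, 24 and 72 h. At an unadjusted p under 0.05 stood Lgals1 at 24 h (male minus female 0.23, SE 0.09), and Lgals3bp (-0.19, SE 0.07) and Lgals9 (-0.17, SE 0.07) at 72 h, with a smallest adjusted p of 0.463 by edgeR, beside 4.59%, 8.43% and 7.4% of genes at the 3 times. The CHI difference did not pass a test between the sexes for any of the 5 genes, with 0 at an unadjusted p under 0.05 and a smallest adjusted p of 0.575 (0% of all genes passed, and 2.33%, 5.13% and 7.92% had an unadjusted p under 0.05). The interval for Lgals3 at 72 h, -0.52 to 1.17, leaves room for a wide difference either way.

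Levels in sham mice were also compared between strains and times, which is not the contrast the genes were chosen on, although the same sham mice enter the CHI differences. In IL-1R1 nRestore sham mice Lgals3bp was lower than in C57BL/6J sham mice by a log2 value of -0.54 (SE 0.12, adjusted p = 0.00138) and Lgals1 by -0.34 (SE 0.12, adjusted p = 0.0363), by edgeR, where 16.3% of all genes passed. When the experiment replaced time in this fit both fell short of the threshold (-0.35, adjusted p = 0.27, and -0.37, adjusted p = 0.219). The low sham level of Lgals3bp entered the CHI differences of IL-1R1 nRestore mice given above. Sham mice labelled IL-1R1 gKO and IL-1R1 eRestore differed from C57BL/6J in 0 of 5 genes by edgeR or DESeq2, where 4.92% and 4.7% of genes passed. At an unadjusted p under 0.05 each had 1 gene, Lgals1 and Lgals9, beside 17.4% and 16.5% of genes. Between times, sham levels of Lgals8 were higher at 24 h than at 9 h by 0.10 (SE 0.04, adjusted p = 0.0359; 47.9% of genes passed) and at 72 h by 0.15 (SE 0.04, adjusted p = 0.00153), and Lgals1 was lower at 72 h than at 9 h by -0.29 (SE 0.10, adjusted p = 0.0124; 46.6% of genes passed). With no filter beyond 1 count the 24 h difference of Lgals8 fell short (0.11, adjusted p = 0.0604). Between 72 and 24 h 0 of 5 genes passed in sham mice by edgeR or DESeq2 and 0 had an unadjusted p under 0.05, beside 0% and 6.63% of genes.

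Across the 200 mice, after the mean of each strain, surgery and time group was removed, the 5 genes varied largely apart from one another. The highest Pearson r among them was 0.43 (Spearman's rho 0.34), between Lgals3bp and Lgals9, followed by 0.31 between Lgals1 and Lgals3bp and 0.26 between Lgals1 and Lgals3. The other 7 pairs were between 0.06 and 0.18. These are descriptions over mice that share libraries, sequencing depth and dissection.

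Of 16059 genes with enough counts, the nearest to Lgals3 were Cd109 (r = 0.45), a membrane protein that binds transforming growth factor beta, and the astrocyte filament genes Vim and Gfap (both r = 0.44). Lgals1 was nearest to the tetraspanins Cd63 (r = 0.72) and Cd151 (r = 0.65). Lgals3bp was nearest to Ephx1 (r = 0.58), which encodes an epoxide hydrolase, to B2m (r = 0.58), the light chain of MHC class I, and to the lysosomal protease gene Ctsc (r = 0.56). Lgals9 was also nearest to B2m (r = 0.47), with the membrane protein gene Stom (r = 0.47) and the complement gene C1qb (r = 0.46). Lgals8 was nearest to Snx22 (r = 0.54), Hnrnpdl (r = 0.53) and Stxbp3 (r = 0.51).

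With sums of cell type markers in TPM, the highest r of Lgals3, Lgals1 and Lgals8 was that with the reactive astrocyte markers. Lgals3 had r = 0.47 with the reactive astrocyte markers and r = 0.01 with the microglial markers. Lgals1 and Lgals8 both had r = 0.31 with the reactive astrocyte sum, and r = -0.40 and r = -0.33 with the neuronal sum. Lgals9 had its highest r, 0.37, with the microglial sum. Lgals3bp had r = 0.42 with the meningeal fibroblast sum (Spearman's rho 0.35) and r = 0.32 with the microglial sum (rho 0.35). Its r with the sum of 6 infiltrating monocyte markers was 0.44 (rho 0.24), but Ace, which vessels and choroid plexus also express, made up a median of 93.6% of that sum, and without Ace r was 0.24 (rho 0.20).

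The levels of these cell types moved with CHI, and their part in the differences of the 5 genes was not tested. Of 8 microglial markers, 5 fell at 9 h (P2ry12, Siglech, Sall1, Gpr34 and Tmem119), when the summed level had a median of 244 and a maximum of 339 TPM after CHI, with its lowest mouse below every sham mouse, and ran from 219 through 270 to 389 TPM after sham. At 24 h 0 of 8 passed, and at 72 h Cx3cr1, Fcrls and Tmem119 rose, with summed levels of 268, 343 and 477 TPM after CHI against 245, 283 and 346 TPM. Reactive astrocyte markers rose at every time, 6 of 7 tested at 9 h, 4 of 6 at 24 h and 3 of 5 at 72 h. Gfap, the astrocyte filament gene, rose by 0.78, 0.49 and 0.69 on the log2 scale, and Lcn2 by 3.42 at 9 h. Their sum at 9 h had a median of 245 and a maximum of 496 TPM after CHI and ran from 93.1 to 214 TPM after sham, and the groups overlapped, since the lowest CHI mouse was below the sham median. Some but not all markers of other listed types, such as endothelial cells and astrocytes, also passed at 9 h.

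All 6 choroid plexus markers and 6 of 8 meningeal fibroblast markers fell at 9 h, with median log2 differences of -1.73 and -0.58, and none of either fell later. At 72 h Col1a1, a collagen gene of fibroblasts, rose by 0.62 (adjusted p = 0.00706), and the median of the 8 meningeal markers was 0.27. The choroid plexus sum at 9 h ran from 4.79 to 2518 TPM after CHI and from 9.59 to 6264 TPM after sham, and the meningeal sum from 18.5 to 78.3 TPM and from 20.3 to 212 TPM. Most markers of blood leukocytes were listed at 0 in most of the perfused hemispheres. Over the 200 mice this held for 6 of 8 neutrophil markers, 5 of 7 T and NK cell markers and 3 of 6 infiltrating monocyte markers, and at 9 h for 7, 6 and 4 of them. The neutrophil genes S100a8 and S100a9 were at 0 in 96 and 80 of the 200 mice and reached 29.4 and 34 TPM. The sum of the monocyte markers other than Ace had medians of 0.222 TPM after CHI and 0.230 TPM after sham at 9 h, with maxima of 1.80 and 2.81 TPM, and of 0.657 and 0.384 TPM at 72 h, with maxima of 5.90 and 2.53 TPM.

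Genes that act with galectins were taken as 4 lists plus the other galectin genes, chosen from general knowledge with earlier results of these data known, and compared over the 4 strains with edgeR. Of all genes, 12.7% rose and 13.8% fell at 9 h, 0.826% and 1.13% at 24 h, and 0.699% and 0.0181% at 72 h. Among 17 receptors and binding partners tested, 4 rose and 1 fell at 9 h. Cd44, the hyaluronan receptor to which galectins bind, rose by 0.71 (SE 0.14, adjusted p = 6.50e-05), Havcr2, the receptor of galectin-9, by 0.34 (SE 0.08, adjusted p = 0.00102), and Mertk, the phagocytic receptor that takes galectin-3 as a ligand, by 0.23 (SE 0.05, adjusted p = 0.00014). P4hb, a disulfide isomerase retained by galectin-9 at the cell surface, rose by 0.13 (SE 0.05, adjusted p = 0.0304), and the complement receptor chain Itgam fell by 0.39 (SE 0.07, adjusted p = 2.79e-05). At 24 h 0 of 17 passed with sex and age as covariates and 1 without them.

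At 72 h 4 receptors rose, again Havcr2 (0.39, SE 0.07, adjusted p = 0.000586) and Cd44 (0.36, SE 0.08, adjusted p = 0.00768), with the microglial lipid receptor Trem2, to which galectin-3 binds (0.37, SE 0.07, adjusted p = 0.00152), and Itgam, now higher (0.22, SE 0.04, adjusted p = 0.00191). So Lgals9 and its receptor Havcr2 were both higher after CHI at 72 h, while at 9 h Havcr2 rose and Lgals9 stood at -0.15. The list's median difference was 0.07 at each time, beside -0.01 at 9 h and -0.00 at the later times over all genes.

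Of 14 enzymes that build galectin ligands, 4 passed at 9 h. Mgat3, which adds the bisecting N-acetylglucosamine, rose by 0.22 (adjusted p = 2.72e-08) and the branching enzyme gene Mgat4b by 0.16 (adjusted p = 6.21e-05). C1galt1c1, the chaperone of O-glycan core synthesis, fell by 0.30 (adjusted p = 2.26e-05) and Mgat1, which starts complex N-glycans, by 0.18 (adjusted p = 4.18e-05). At 24 h 0 passed, and at 72 h Gcnt1, the core branching enzyme, rose by 0.29 (adjusted p = 0.0256). Of 12 genes tested from the lysosomal damage response, in which galectin-3, galectin-8 and galectin-9 take part, the autophagy receptor Sqstm1 rose at 9 h by 0.13 (adjusted p = 0.00053) and 0 passed at 24 or 72 h. Lgalsl was the only other galectin gene past the test, higher by 0.12 (SE 0.04, adjusted p = 0.0143) at 9 h, when 2 of 7 listed were tested.

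The list of disease-associated microglia, a state of which galectin-3 is often taken as a marker, moved late. At 9 h 2 of 12 tested rose, Gpnmb by 0.27 (adjusted p = 0.0121) and Spp1 by 0.46 (adjusted p = 0.0323). At 24 h 2 of 12 rose, Cd68 by 0.41 (adjusted p = 0.000438) and the beta-glucan receptor Clec7a by 0.80 (adjusted p = 0.0401). At 72 h 10 of 13 rose, led by Clec7a at 1.75 (SE 0.20, adjusted p = 1.67e-08), the integrin Itgax at 1.36 (adjusted p = 6.94e-05) and Cd68 at 0.61 (adjusted p = 4.86e-07). The median difference of the list was 0.07, 0.12 and 0.31 at the 3 times, while that of Lgals3 was 1.51, 0.59 and 0.80.

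**Figure D4:**
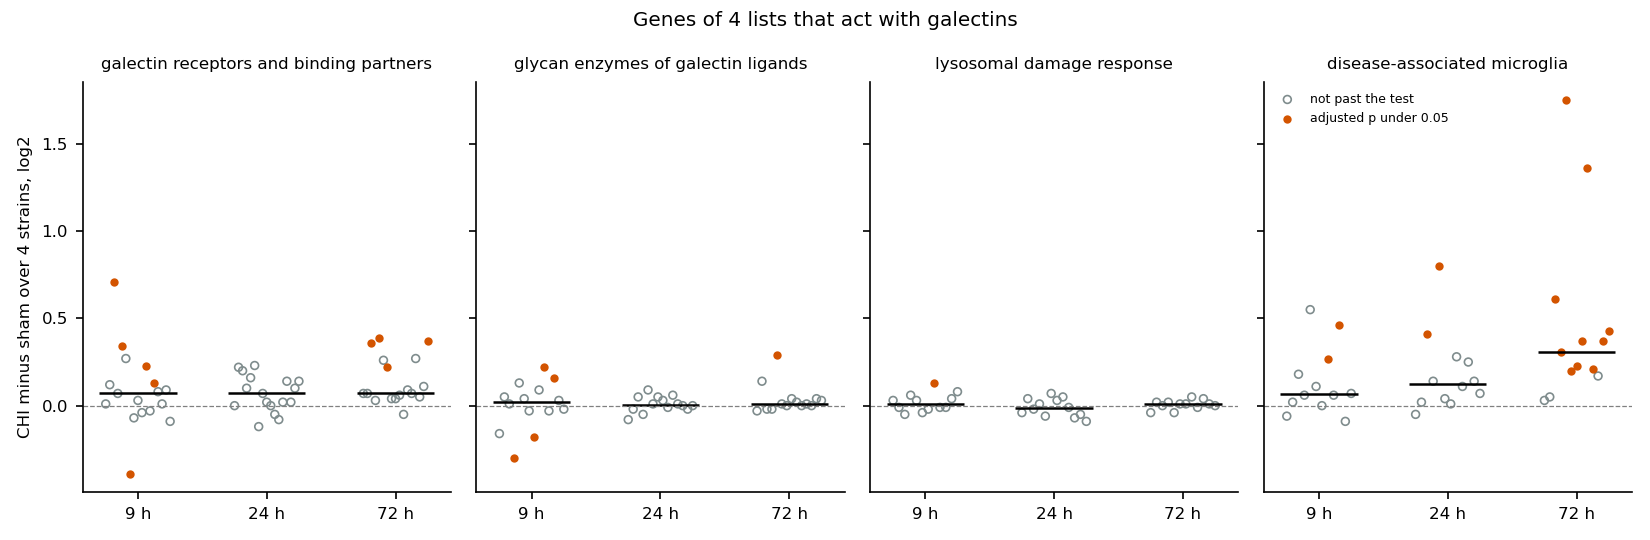
CHI minus sham on the log2 scale (vertical axis) over 4 strains for the genes of 4 lists at 9, 24 and 72 h. Each point is a gene, filled where its adjusted p is under 0.05, and bars are list medians; the disease-associated microglia median reaches 0.31 at 72 h, while the lysosomal damage median stays between -0.02 and 0.01.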

How the data were processed

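The members and gene lists were chosen with earlier results of these data known. One hemisphere per mouse was taken after perfusion with PBS, and poly(A) libraries were sequenced paired-end. The authors aligned reads to GRCm39 with STAR and quantified them with Salmon in the nf-core/rnaseq pipeline. They deposited estimated counts (expected counts) per gene, not normalized, 10.8% of which are not whole, and TPM, scaled within each library for transcript length. Annotation release and strandedness are not given in the sources used here. Total counts per mouse were 14.9 to 57.4 M. Counting error weighs most on Lgals3, with a median of 14 counts per mouse, and is not small for Lgals9, with a median of 102. Duplicates were not removed here.

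Counts were rounded and fitted in R 4.3.3 with edgeR 4.0.16 (TMM scaling, robust quasi-likelihood F test), after dropping genes that did not reach 10 counts in a number of mice equal to the smallest group, with sex and age as covariates, and with strain where strains were pooled. Exceptions were the sham fit and single experiments, which had sex without age, and IL-1R1 nRestore mice at 72 h, with age without sex. The Benjamini-Hochberg adjustment ran over all genes tested, and an adjusted p under 0.05 passed. DESeq2 1.42.0 was an alternative. SE came from the F statistic. All p-values measure the spread between the mice of a group. Levels between genes were compared by TPM only. Gene positions came from GENCODE M39. The genes named beside the 5 were those of the lists past the test, at most 8 per list, and the 3 most alike to each of the 5 by Pearson r of log2 CPM (prior count 1) among genes that reached 10 counts in 100 mice or more. Results for 2 genes that this rule names are not reported here. In C57BL/6J mice at 9 h the fit was tested on simulated data, and recovered 60.8% of genes changed by a log2 value of 0.5 and 78% of those changed by 1. The shares were 35.4% and 72.7% for the CHI effect of a strain against C57BL/6J at 9 h. Over the 4 strains at 72 h they were 88.8% and 98%. Alternatives were DESeq2 with or without gene-length offsets, RLE scaling, other filters, no covariates, experiment in place of age, single experiments and leaving out 1 mouse at a time in the 4 sham groups of 5 or fewer mice. 3 settings were chosen after seeing the data, choroid plexus markers as a covariate, leaving out the libraries that did not match their labelled sex, and the monocyte marker sum without Ace. The mice were operated in the morning, so time after surgery also differs in time of day.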

Additional observations from a re-analysis of the deposited data

Results flagged for a closer look

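In 8 of 80 pairs of a gene and a group of 4 to 10 mice a single mouse stood apart by Dixon's test, where chance gives about 1 in 20. The same mice enter for every gene, so these pairs are not independent. For Lgals3bp, a C57BL/6J sham mouse at 9 h had 23.0 CPM (next 12.7 CPM), with a choroid plexus marker sum of 6003 TPM against at most 1227 TPM in the others of its group and Lgals3 at 1.06 CPM against at most 0.512 CPM. An IL-1R1 eRestore sham mouse at 9 h had the highest Lgals3 at 1.36 CPM (next 0.637 CPM), with a choroid plexus sum of 6264 TPM against at most 880 TPM, a meningeal sum of 212 TPM against at most 116 TPM and Lgals3bp at 25.8 CPM against at most 14.4 CPM. An IL-1R1 eRestore CHI mouse at 24 h had Lgals3bp at 23.1 CPM (next 14.2 CPM), with a choroid plexus sum of 16.3 TPM and a microglial sum of 364 TPM against at most 319 TPM. The part of these cell types in the 3 values was not tested.

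The lowest Lgals3bp value of the IL-1R1 nRestore sham mice at 9 h was 6.01 CPM (next 8.16 CPM). For Lgals1, an IL-1R1 nRestore sham mouse at 72 h had 3.41 CPM (next 5.72 CPM). For Lgals8, an IL-1R1 eRestore sham mouse at 72 h had 29.4 CPM (next 23.2 CPM). For Lgals9, a sham mouse labelled IL-1R1 gKO at 72 h had 2.84 CPM (next 4.60 CPM) and an IL-1R1 nRestore CHI mouse at 72 h had 3.83 CPM (next 5.83 CPM).

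Differences between CHI and sham at one time minus those at another were also flagged. The share of all genes flagged in these contrasts is not given here, so no count of genes is drawn from them. Lgals1 had 0.39 at 24 h against 9 h and 0.45 at 72 h against 9 h. At 72 h against 9 h Lgals3bp had 0.51 and Lgals9 0.37. The genes were chosen with these contrasts known, so the values are a description and not a test. Time and experiment cannot be told apart in these comparisons.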

How the results depend on the processing

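Of 214 alternative values from the fits between times, between strains and in sham mice, 205 kept their direction and side of the threshold, 1 reversed, 3 came to pass and 5 no longer passed. Those between times and strains rest on contrasts known when the genes were chosen and are no test. CHI minus sham turned sign in 12 of 289 values in C57BL/6J mice or over the 4 strains, where the reported size was at most 0.15, and in 28 of 411 in the other strains, where it was at most 0.42. In the experiment with 1 sham mouse at 24 h, CHI minus sham was 0.46 for Lgals3bp, 1.76 for Lgals3 and 0.72 for Lgals1, and in a single experiment at 72 h it was -0.13 for Lgals8. Without covariates, Lgals3bp at 24 h against 9 h was 0.34, so 2 genes passed. With experiment in place of age, Lgals3 at 24 h against 9 h was -0.86, Lgals1 was 0.34, and Lgals3 at 72 h against 24 h turned to 0.16. In the sham fit the experiment took the place of time. There IL-1R1 nRestore against C57BL/6J gave -0.35 (adjusted p = 0.27) for Lgals3bp and -0.37 (adjusted p = 0.219) for Lgals1, so 0 passed. With choroid plexus markers as a covariate, Lgals3 at 72 h against 9 h was -0.83. With no filter beyond 1 count, Lgals1 in that sham comparison was -0.34 (adjusted p = 0.0599), leaving 1 gene, and Lgals8 in sham mice at 24 h against 9 h was 0.11 (adjusted p = 0.0604), leaving 0. The causes of these changes were not tested. Leaving out 1 mouse at a time, done for 19 mice in the 4 sham groups of 5 or fewer, turned the sign of 10 of 95 values. No gene passed in these groups with every mouse. No paired analysis was possible because the CHI and sham mice were different animals.

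A filter of 10 counts in every mouse dropped Lgals3, and experiment in place of time gave no comparison of sham mice between times. Gene-length offsets were run only for CHI against sham in C57BL/6J and in the 4 strains together. Low counts limit Lgals3 most.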
